A study of Neurospora crassa with 18 samples.

Results

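In *Neurospora crassa*, a filamentous fungus, 57 of 9730 annotated genes had lower mRNA in 0.1% glucose medium than in 2% glucose medium in both the wild type (WT) and a *cpc-1* deletion strain (*cpc-1Δ*), and were not as much lower in WT treated with 3-aminotriazole (3-AT). They were chosen on measured values: the mean of the 0.1% glucose libraries had to be at most 0.4 of the mean in 2% glucose in each strain, the WT ratio of 3-AT to no 3-AT had to be above 0.5, and a level filter asked for a value above 0 in each of 15 libraries with a mean of at least 10 RPKM (reads per unit of transcript length and of library size, scaled between libraries). This filter left 4074 genes, so the 57 were 1.40% of them. Of the 57 genes, 6 had a symbol (*nit-3*, *nit-10*, *nit-6*, *am*, *fsd-1* and *tcu-3*) and 51 had only a locus tag, for which no product was given in the annotation used here.

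The series held 18 mRNA-seq libraries of mycelia grown at room temperature in constant light on Vogel's minimal medium. The *cpc-1Δ* strain (labelled cpc-1KO) was measured in 0.1% glucose with 0.17% arginine (2 libraries), in 2% glucose after 8 h in 5 mM 3-AT (3 libraries) and in 2% glucose alone (2 libraries). The WT strain, FGSC4200, was measured in the same cultures with 2, 3 and 3 libraries. A strain labelled cpc-1KO+cpc-1WT, which carries the deletion and a *cpc-1* transgene under the *ccg-1* promoter at the *csr-1* locus, was measured in 2% glucose with 3-AT only (3 libraries). The headings inside its files read GCN4WT in place of cpc-1WT, and the label was followed, so its values rest on that label. Since arginine was added only to the 0.1% glucose medium, the glucose level and arginine cannot be told apart in these data. The labels do not say whether libraries of a group came from separate cultures, so the spread between them may be technical.

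Fungi use a preferred carbon source first and adjust nitrogen use to the sources on offer. Nitrate enters the hypha through a transporter, nitrate reductase and nitrite reductase turn it into ammonium, and NADP-specific glutamate dehydrogenase joins ammonium to 2-oxoglutarate. In *N. crassa* the nitrate genes need the GATA factor NIT2 and the pathway-specific activator NIT4, and they are kept low when a preferred nitrogen source such as ammonium or glutamine is at hand. CPC-1, the counterpart of yeast GCN4, is a bZIP activator of amino acid synthesis genes, and 3-AT, an inhibitor of histidine synthesis, calls on it.

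*cpc-1* itself averaged 1.83 ± 0.03 RPKM in *cpc-1Δ* in 0.1% glucose, 2.31 ± 0.16 with 3-AT and 3.09 ± 1.04 in 2% glucose (SD, n = 2, 3 and 2), against 321 ± 2.9, 1666 ± 23.0 and 1279 ± 26.6 RPKM in WT (n = 2, 3 and 3). The cpc-1KO+cpc-1WT strain reached 64.2 ± 5.4 RPKM (n = 3). Depth in reads was unknown. As a measure of the smallest readable value, the 50th smallest value above 0 of each library, times gene length, was used. By this measure the libraries of the 0.1% glucose groups and of *cpc-1Δ* in 2% glucose had a relative depth of 1 to 3.66, and the others of 5.40 to 9.31. These groups had 2 libraries each and scaling factors of 1.31 to 1.34, and the others 3 libraries and factors of 0.663 to 1.12. The WT low-glucose ratio, the *cpc-1Δ* 3-AT ratio and the strain ratio in 2% glucose each cross this split. The *cpc-1Δ* low-glucose ratio and the WT 3-AT ratio do not. Where the strains differ in these responses, strain and this split of the libraries therefore cannot be told apart. Markers of growing hyphae (*act*, *hex-1* and the beta-tubulin gene) summed to between 1854 and 3322 RPKM, and none was at 0 in any group.

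Levels of the 57 genes in 0.1% glucose were between 2.53-fold and 53.7-fold lower in *cpc-1Δ* and between 2.51-fold and 552-fold lower in WT. The median log2 ratio was -2.02 in *cpc-1Δ* and -2.41 in WT, beside 0.04 and -0.05 over the genes past the level filter. Since these ratios chose the genes they are a description. In *cpc-1Δ* 7 genes were at least 10-fold lower and 2 at least 30-fold lower, while in WT these counts were 16 and 6. The ratio was nearer to 1 in *cpc-1Δ* for 36 of the 57 genes and nearer to 1 in WT for 21. All 57 were lower in every 0.1% glucose library than in any 2% glucose library of the same strain, as were 34.1% of the genes past the level filter in *cpc-1Δ* and 44.6% in WT. In bulk mycelia, fewer hyphae that express a gene and less RNA per hypha cannot be told apart.

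**Figure D1:**
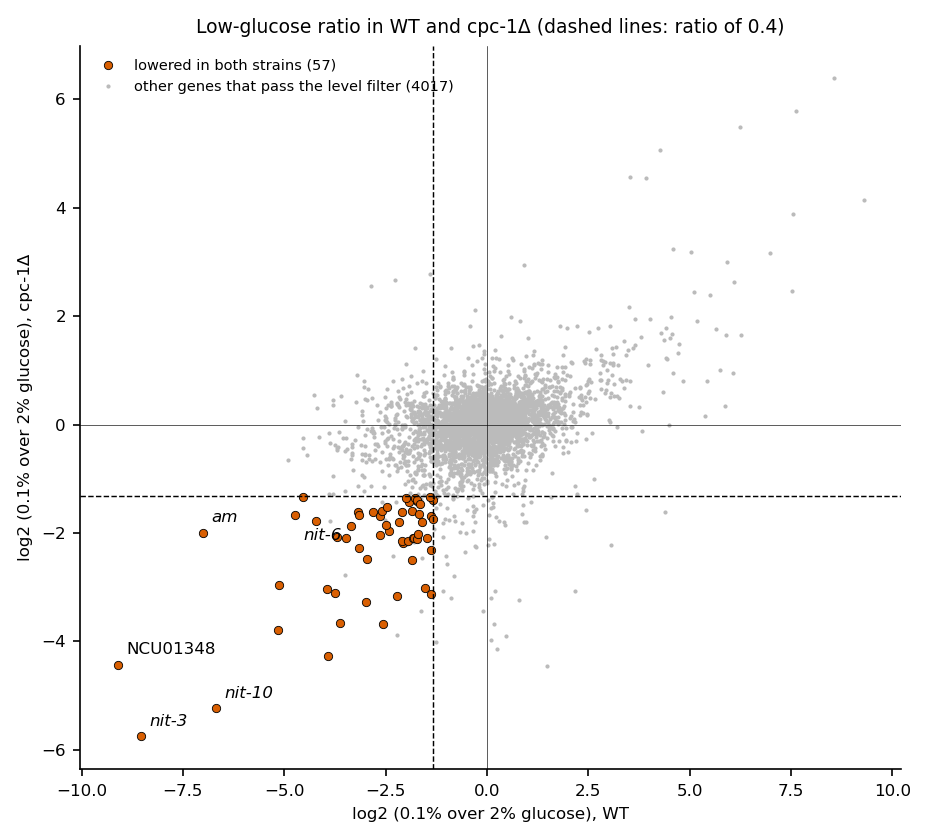
Each point is a gene past the level filter, placed by the log2 ratio of 0.1% to 2% glucose in WT (x axis) and in cpc-1Δ (y axis). Orange points are the 57 genes, and dashed lines mark a ratio of 0.4. At or below both lines also lie 13 grey points, the genes that the 3-AT condition dropped. The cpc-1Δ ratio was at or under that limit for 3.46% of the genes and the WT ratio for 11.8%, and of the 57 genes nit-3, NCU01348, nit-10 and am lie farthest from the origin.

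The ratio limit alone was met in *cpc-1Δ* only by 71 genes, in WT only by 412 and in both by 70, of which 13 were dropped because their WT ratio with 3-AT was 0.5 or less. Just inside the limit stood NCU01289 with a WT ratio of 0.398, NCU06720 with a *cpc-1Δ* ratio of 0.396 and NCU08739 with a *cpc-1Δ* ratio of 0.395. Just outside stood NCU02200 with a *cpc-1Δ* ratio of 0.401, NCU06607 with a WT ratio of 0.402 and NCU06120 with a WT ratio of 0.405. On the 3-AT side, NCU08495 (0.503) and NCU09702 (0.517) were the nearest inside and NCU09904 (0.477) and NCU08407 (0.460) the nearest outside. A further 267 genes met both ratio limits but not the level filter. Of the genes at 10 RPKM or more in each 2% glucose library without 3-AT, 85 were listed at 0 in at least 1 library in 0.1% glucose and 4 in all such libraries, and these were left out by the filter. A listed 0 need not mean a low level, since the glycolysis gene *gpd-1* was listed at 0 in 1 *cpc-1Δ* library in 0.1% glucose.

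In 0.1% glucose the 57 genes together made up 0.296% of the summed RPKM in *cpc-1Δ* and 0.199% in WT, against 1.20% and 1.65% in 2% glucose. Their median level was 6.92 RPKM in *cpc-1Δ* in 0.1% glucose against 34.0 in 2% glucose, and 5.11 RPKM in WT in 0.1% glucose against 27.0 in 2% glucose. In 0.1% glucose 37 of the 57 averaged under 10 RPKM in *cpc-1Δ* and 41 in WT. These levels were low for the depth. Between 5 and 11 of the genes were under 10 times the smallest readable value of a 0.1% glucose library, and the median coefficient of variation between its paired libraries was 10.9% in *cpc-1Δ* and 10.2% in WT, against 3.40% and 3.60% in 2% glucose.

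The genes of nitrate use led the list. The nitrate reductase gene *nit-3* had the smallest product of the 2 ratios of all 57. In *cpc-1Δ* it had 0.72 and 1.03 RPKM in 0.1% glucose, against 46.96 and 47.35 RPKM in 2% glucose. In WT it had 0.38 and 0.41 RPKM in 0.1% glucose, against 150.4, 145.6 and 146.8 RPKM in 2% glucose. It was 53.7-fold lower in *cpc-1Δ* and 372-fold lower in WT, and the WT values in 0.1% glucose were only 3.24 and 4.08 times the smallest readable value.

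The nitrate transporter gene *nit-10* had 2.52 and 2.74 RPKM in *cpc-1Δ* in 0.1% glucose, against 98.0 and 99.4 RPKM in 2% glucose. WT had 5.19 and 3.57 RPKM in 0.1% glucose, against 444, 417 and 499 RPKM in 2% glucose. It was the only one of the 4 nitrogen genes that stood lower in *cpc-1Δ* than in WT in both media.

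For *nit-6*, which encodes nitrite reductase, *cpc-1Δ* had 86.9 and 87.3 RPKM in 0.1% glucose, against 279 and 275 RPKM in 2% glucose. WT had 32.6 and 32.3 RPKM in 0.1% glucose, against 874, 871 and 857 RPKM in 2% glucose. It was 3.18-fold lower in *cpc-1Δ* and 26.7-fold lower in WT, and the level left in 0.1% glucose was higher in *cpc-1Δ*.

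The strains differed most for *am*, the NADP-specific glutamate dehydrogenase gene. In *cpc-1Δ* it had 157 and 159 RPKM in 0.1% glucose, against 631 and 626 RPKM in 2% glucose, a 3.98-fold difference. In WT it had 5.27 and 7.88 RPKM in 0.1% glucose, against 837, 862 and 853 RPKM in 2% glucose, a 129-fold difference. In 0.1% glucose *am* was thus 24.0-fold higher in *cpc-1Δ* than in WT, while in 2% glucose it was at 0.739 of the WT level.

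**Figure D2:**
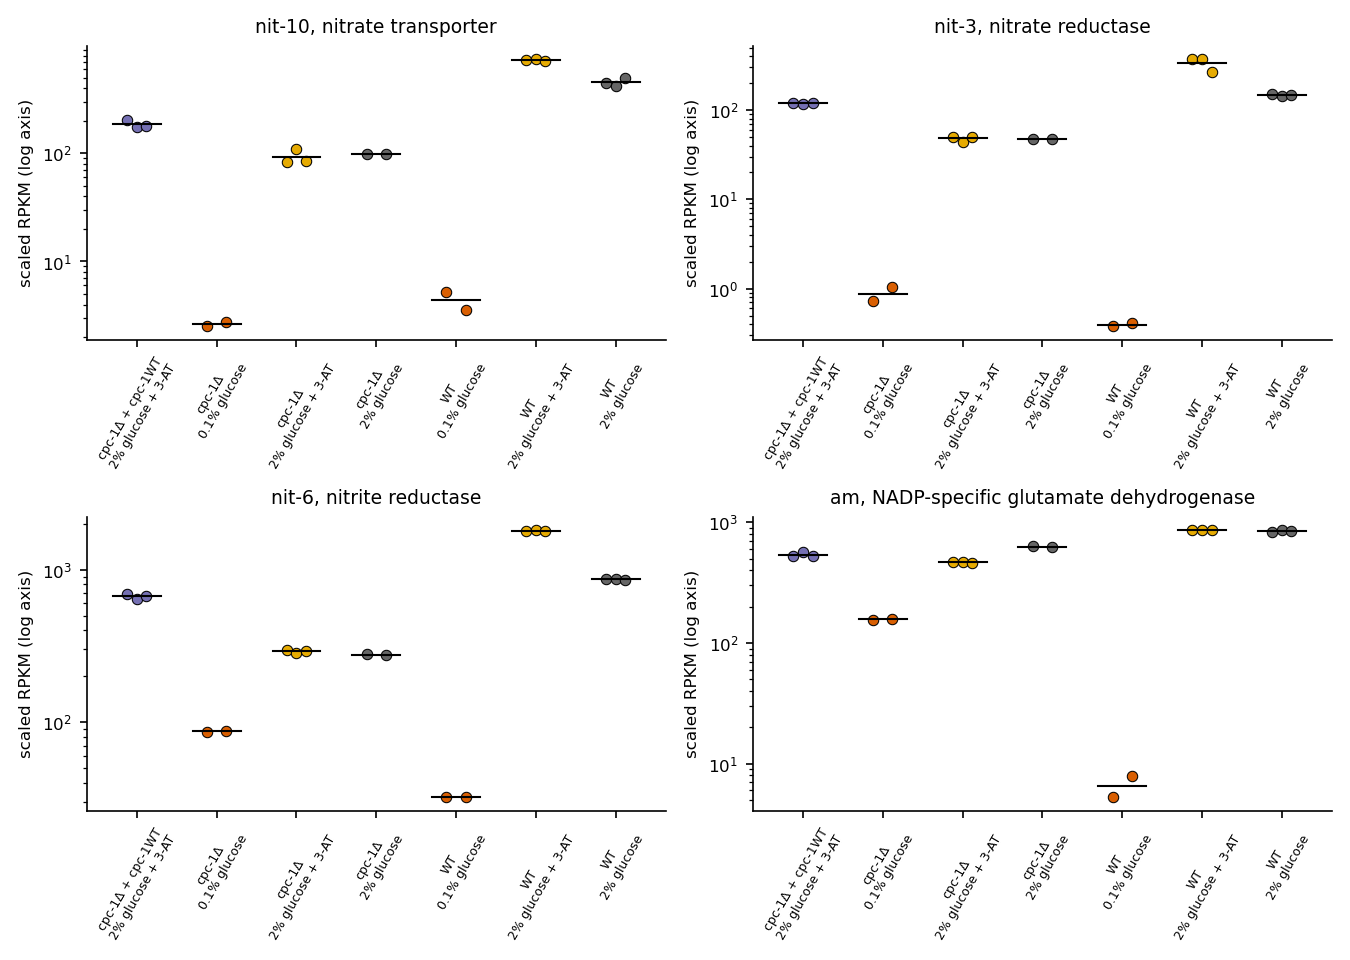
Scaled RPKM (log axis) of nit-10, nit-3, nit-6 and am in each of the 18 libraries, by strain and medium. Points are libraries and bars are group means. The 0.1% glucose libraries lie below all others of their strain in each panel, and for am the 2 cpc-1Δ libraries in 0.1% glucose (157 and 159) stand far above the 2 WT libraries (5.27 and 7.88).

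Of the 11 genes on a list of nitrogen uptake and nitrate use, 8 passed the level filter, and these 4 were the members. The other 4 were above the ratio limit in at least 1 strain. The GATA activator gene *nit-2* was at 30.1 and 32.5 RPKM in *cpc-1Δ* in 0.1% glucose, against 47.2 and 49.6 in 2% glucose, and at 10.2 and 9.78 RPKM in WT in 0.1% glucose, against 56.2, 57.2 and 56.2 in 2% glucose. Its ratio was 0.647 in *cpc-1Δ* and 0.176 in WT, so it met the limit in WT only. The glutamine synthetase genes *gln-1* and *gln-2* had ratios of 0.781 and 0.733 in *cpc-1Δ*, against 0.714 and 0.773 in WT. The glutamate synthase gene *en(am)-2* had ratios of 0.788 and 0.603. The pathway activator gene *nit-4*, under 10 RPKM in all groups, had a ratio of 0.949 in *cpc-1Δ* and 0.364 in WT, and *nmr*, whose product restrains NIT2, was listed at 0 in both *cpc-1Δ* libraries in 2% glucose.

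None of the other gene lists held a member, as far as symbols could be matched. Of 60 amino acid synthesis genes, 51 passed the level filter, and 0 of these met the ratio limit in *cpc-1Δ* but 25 did in WT. Of 8 nucleotide synthesis genes 0 met it in *cpc-1Δ* and 4 in WT. The respiration list was matched by symbol alone, and of its 45 genes past the filter 0 and 3 met it. Those 3 were *cyt-5*, *cyt-18* and *nde-2*, and their part in respiration was not checked. On the remaining lists, 0 genes past the level filter met the limit in *cpc-1Δ*. In WT it was met by 3 of 4 sterol and fatty acid synthesis genes. It was met in WT by 0 of 3 sugar transport, 0 of 6 cell wall and 0 of 9 histone genes. The glycolysis list had 1 such gene of 1, the ribosomal protein list 1 of 6 and the phosphate and sulfate uptake list 1 of 1. For the last list this was *cys-14*, which is also on the amino acid synthesis list. No symbols of metal uptake genes were searched, so metal uptake was not checked. Of the listed genes that did not pass the filter, *pho-3* had a ratio of 0.201 in *cpc-1Δ* and 0.187 in WT, and the amino acid synthesis gene *lys-7* was listed at 0 in *cpc-1Δ* in 0.1% glucose.

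The gene with the lowest ratio in WT was NCU01348. In *cpc-1Δ* it had 2.16 and 2.28 RPKM in 0.1% glucose, against 48.0 and 47.7 RPKM in 2% glucose. WT had 0.34 and 0.76 RPKM in 0.1% glucose, against 430, 47.9 and 436 RPKM in 2% glucose. The lone WT library at 47.9 RPKM stood apart from the other two, and against that library alone the WT ratio was 0.0115. The same library was also low for NCU04931, with 16.6 RPKM beside 77.4 and 80.0.

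The next 6 genes with only a locus tag, in the order of the product, were more than 7-fold lower in both strains. NCU01065 had 3.63 and 3.13 RPKM in *cpc-1Δ* in 0.1% glucose, against 46.5 and 47.3 in 2% glucose, and 2.57 and 2.24 RPKM in WT in 0.1% glucose, against 82.4, 84.3 and 89.6 in 2% glucose. NCU05230 had 2.79 and 2.97 RPKM in *cpc-1Δ* in 0.1% glucose, against 55.7 and 54.9 in 2% glucose, and 1.19 and 1.29 RPKM in WT in 0.1% glucose, against 18.2, 21.6 and 16.9 in 2% glucose. NCU07049 was lower by nearly the same factor in the strains, 12.6-fold in *cpc-1Δ* and 12.3-fold in WT. NCU04435 was 7.81-fold lower in *cpc-1Δ* and 35.1-fold lower in WT, and NCU07334 was 8.14-fold and 15.5-fold lower. NCU03240 was at 3.68 and 4.26 RPKM in *cpc-1Δ* in 0.1% glucose, against 35.1 and 32.9 in 2% glucose, and at 4.30 and 4.79 RPKM in WT in 0.1% glucose, against 61.1, 60.3 and 63.1 in 2% glucose.

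In some genes the larger difference was in *cpc-1Δ*. NCU00878 had 5.93 and 20.7 RPKM in *cpc-1Δ* in 0.1% glucose, against 186 and 158 in 2% glucose, and 43.5 and 54.5 RPKM in WT in 0.1% glucose, against 280, 323 and 273 in 2% glucose. Its paired *cpc-1Δ* libraries differed by more than 3-fold, as did those of NCU08156 and NCU06558, and the paired WT libraries of NCU10500. NCU02378 was 9.67-fold lower in *cpc-1Δ* and 7.85-fold lower in WT. NCU01057 and NCU11291 were 8.09-fold and 8.77-fold lower in *cpc-1Δ*, against 2.88-fold and 2.60-fold in WT.

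The reverse held for NCU05089 and NCU08739, which were 3.43-fold and 2.53-fold lower in *cpc-1Δ* and 18.6-fold and 23.4-fold lower in WT. NCU08739 was scarce without 3-AT. It had 0.27 and 0.62 RPKM in *cpc-1Δ* in 0.1% glucose, against 0.87 and 1.37 in 2% glucose, so its ratio there rests on values close to the smallest readable ones.

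The 2 remaining genes with a symbol lay in the lower part of the list. *fsd-1*, a gene of female sexual development, had 3.42 and 5.51 RPKM in *cpc-1Δ* in 0.1% glucose, against 20.4 and 18.4 in 2% glucose. WT libraries had 5.82 and 5.04 RPKM in 0.1% glucose, against 18.2, 15.4 and 20.1 in 2% glucose. *tcu-3* had 7.45 and 7.25 RPKM in *cpc-1Δ* in 0.1% glucose, against 30.6 and 32.3 in 2% glucose, and 7.13 and 5.68 RPKM in WT in 0.1% glucose, against 13.8, 17.9 and 21.7 in 2% glucose.

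The most abundant of the 57 in 2% glucose were *am*, *nit-6*, NCU07257 and NCU01546. NCU07257 kept 162 and 158 RPKM in *cpc-1Δ* in 0.1% glucose, against 595 and 582 in 2% glucose, and 83.5 and 88.4 RPKM in WT in 0.1% glucose, against 866, 886 and 871 in 2% glucose. NCU01546 kept the highest level of all 57 in 0.1% glucose, with 340 and 231 RPKM in *cpc-1Δ* and 202 and 206 RPKM in WT.

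Some developmental markers also differed between the media. The summed level of 6 sexual development markers was 177 to 187 RPKM in *cpc-1Δ* in 0.1% glucose, against 67.1 to 69.5 in 2% glucose, and 739 to 763 RPKM in WT in 0.1% glucose, against 142 to 143 in 2% glucose. The pheromone precursor gene *mfa-1* was at 100.1 RPKM in *cpc-1Δ* in 0.1% glucose, against 4.22 in 2% glucose, and at 687 RPKM in WT in 0.1% glucose, against 59.7 in 2% glucose, and *ccg-4* was at 0 in both strains in 0.1% glucose. Without *mfa-1* the other 5 summed to 81.7 RPKM in *cpc-1Δ* in 0.1% glucose, against 64.1 in 2% glucose, and to 64.4 RPKM in WT in 0.1% glucose, against 82.9 in 2% glucose. The summed level of 10 conidiation markers was 188 to 192 RPKM in *cpc-1Δ* in 0.1% glucose, against 244 to 254 in 2% glucose. In WT it was 546 to 594 RPKM in 0.1% glucose, within the range of 280 to 874 in 2% glucose. That WT sum joined opposite differences. In WT *eas* averaged 41.6 RPKM in 0.1% glucose, against 398 in 2% glucose, and *al-2*, *fl* and *acon-2* were also lower. *con-8* averaged 176 RPKM in WT in 0.1% glucose, against 28.1 in 2% glucose, and *con-6*, *con-10*, *con-13*, *al-1* and *al-3* were also higher. *con-6* was listed at 0 in 2% glucose in both strains. None of these markers was among the 57 genes, and their part in the low-glucose ratios was not tested.

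The strains differed in the level of most of the 57 genes, as they did for most genes past the level filter. In 2% glucose 21 genes were higher in every *cpc-1Δ* library than in any WT library and 31 were lower, so 52 did not overlap, as was the case for 81.5% of the filtered genes. Their median log2 ratio of *cpc-1Δ* to WT was -0.36, beside -0.04 over those genes. On RPKM as deposited it was 0.23, beside 0.54, so that the difference from the filtered genes was -0.31 under either scaling. In 0.1% glucose 26 were higher and 15 lower, so 41 did not overlap, beside 83.8% of the filtered genes, and the median was 0.20 beside -0.03. These comparisons use the libraries that chose the genes and are given without a test.

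The nitrate genes had lower levels in *cpc-1Δ* than in WT in 2% glucose: the ratio was 0.218 for *nit-10*, 0.320 for *nit-3* and 0.319 for *nit-6*. Lower still were NCU05045 with a ratio of 0.121, NCU01348 with 0.157 and NCU08156 with 0.162. NCU01348 without the WT library that stood apart had a ratio of 0.111. The other end was held by NCU04942, with 118 and 109 RPKM in *cpc-1Δ* against 8.27, 8.21 and 8.65 RPKM in WT, a ratio of 13.6. NCU10500 (3.06) and NCU05230 (2.92) came next.

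In 0.1% glucose the largest ratios of *cpc-1Δ* to WT were those of *am* (24.0), NCU04942 (11.8) and NCU09020 (4.22). NCU04942 had 25.9 and 25.7 RPKM in *cpc-1Δ* and 2.61 and 1.76 RPKM in WT, so it kept its strain difference in both media. The smallest were those of NCU05045 (0.063), NCU08397 (0.196) and NCU01057 (0.240), of which the first and last rest on *cpc-1Δ* values only 1.75 to 2.58 and 4.28 to 8.62 times the smallest readable value. NCU08397 had 14.7 and 16.2 RPKM in *cpc-1Δ*, against 77.7 and 79.9 RPKM in WT.

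**Figure D3:**
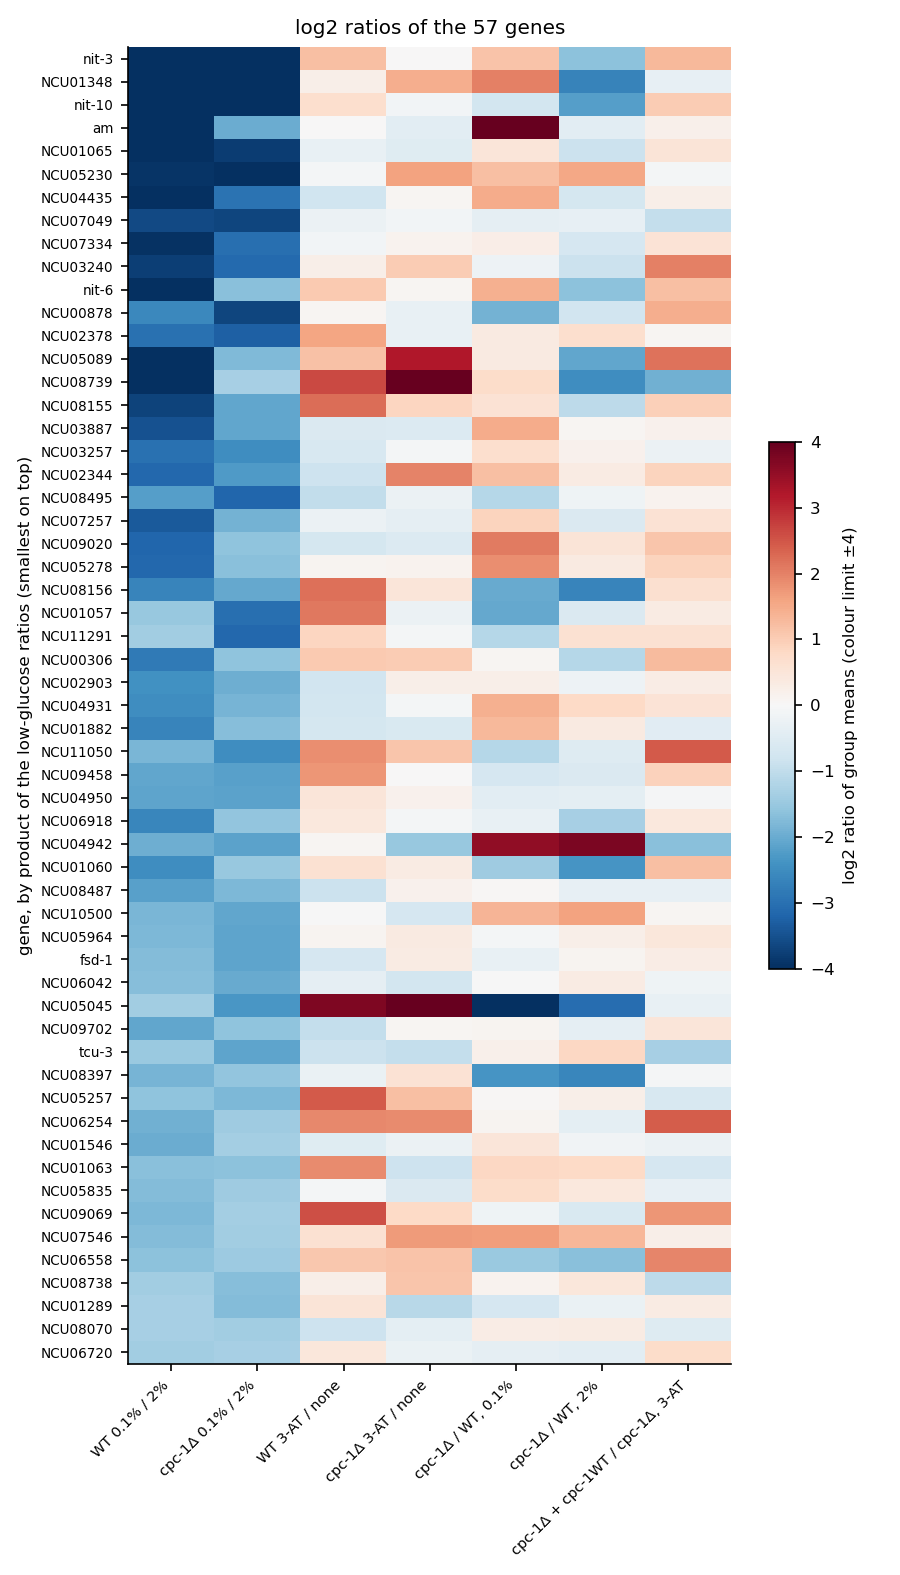
Log2 ratios of group means for the 57 genes (rows, smallest product of the low-glucose ratios on top) in 7 comparisons (columns). Blue marks a lower and red a higher first group, with colours limited at ±4. The first 2 columns are blue throughout because they chose the genes, while the 3-AT and strain columns hold both colours, and NCU04942 and NCU05045 carry strong colour in both strain columns.

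With 3-AT the 57 genes did not move one way. In *cpc-1Δ* 23 were higher in every 3-AT library than in any library without it and 19 were lower, where the genes past the level filter had 34.9% and 41.2%. In WT 28 were higher and 19 lower, where those genes had 35.8% and 36.9%. The median log2 ratio was 0.07 in *cpc-1Δ* and 0.12 in WT, beside -0.03 and -0.004. On RPKM as deposited these medians were -0.42 and -0.26, beside -0.52 and -0.38. The WT side of this comparison was limited by the rule, which dropped genes at or under a ratio of 0.5.

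In *cpc-1Δ* 14 of the 57 were at least 2-fold higher with 3-AT and 2 at least 2-fold lower, beside 2.92% and 2.23% of the genes past the level filter. In WT 17 were at least 2-fold higher, beside 6.55%. These shares are in part set by the level filter, which took in the 3-AT libraries. Over the 9 libraries of the strains without 3-AT, 12 of the 57 averaged under 10 RPKM, so they had to stand high with 3-AT in at least 1 strain to pass, and they held 8 of the 14 and 9 of the 17. NCU05045, NCU08739, NCU05089, NCU06254, NCU11050, NCU00306, NCU09069, NCU01057, NCU08156, NCU02344, NCU07546 and NCU09702 were the 12. Of the other 45 genes, 6 in *cpc-1Δ* and 8 in WT were at least 2-fold higher. In both strains 8 genes passed 2-fold: NCU05045, NCU08739, NCU05089, NCU06254, NCU05257, NCU11050, NCU06558 and NCU00306.

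NCU05045 had 26.3, 30.5 and 28.3 RPKM in *cpc-1Δ* with 3-AT, against 1.00 and 1.20 without, a 25.7-fold difference. In WT it had 120.2, 123 and 118 RPKM with 3-AT, against 10.1, 8.47 and 8.76 without, a 13.2-fold difference. NCU08739 had 17.2, 20.1 and 18.5 RPKM in *cpc-1Δ* with 3-AT, against 0.87 and 1.37 without, and 39.2, 37.8 and 40.8 RPKM in WT with 3-AT, against 6.24, 6.12 and 6.52 without. NCU05089 had 43.7, 43.5 and 39.2 RPKM in *cpc-1Δ* with 3-AT, against 5.02 and 4.06 without, and 48.0, 45.3 and 38.5 RPKM in WT with 3-AT, against 19.0, 19.0 and 20.01 without. For these 3 genes the groups with and without 3-AT did not overlap in either strain. All 3 are among the 12 genes that had to stand high with 3-AT to pass the level filter. Their differences with 3-AT are thus in part set by that filter.

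In WT only, 9 genes were at least 2-fold higher with 3-AT: *nit-3*, *nit-6*, NCU02378, NCU08155, NCU08156, NCU01057, NCU09458, NCU01063 and NCU09069. *nit-3* had 49.9, 44.4 and 50.1 RPKM in *cpc-1Δ* with 3-AT, and these overlapped the values without. In WT it had 375, 372 and 264 RPKM with 3-AT, a ratio of 2.28 to the level without. *nit-6* had 299, 286 and 293 RPKM in *cpc-1Δ* with 3-AT, a ratio of 1.06, and 1784, 1822 and 1791 RPKM in WT, a ratio of 2.07. *nit-10* had a ratio of 0.932 in *cpc-1Δ* and 1.61 in WT, and *am* of 0.743 and 1.02.

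In *cpc-1Δ* only, 6 genes were at least 2-fold higher: NCU01348, NCU05230, NCU03240, NCU02344, NCU07546 and NCU08738. NCU02344 had 70.2, 73.4 and 68.1 RPKM in *cpc-1Δ* with 3-AT, against 16.6 and 19.3 without, and 7.70, 7.44 and 9.24 RPKM in WT with 3-AT, against 13.2, 14.4 and 15.5 without. The lowest ratios in *cpc-1Δ* were those of NCU04942 (0.348), NCU01289 (0.464) and *tcu-3* (0.520). The summed conidiation markers were 182 to 248 RPKM in *cpc-1Δ* with 3-AT and 3665 to 3814 RPKM in WT with 3-AT, most of it the hydrophobin gene *eas*, and their part in these differences was not tested.

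**Figure D4:**
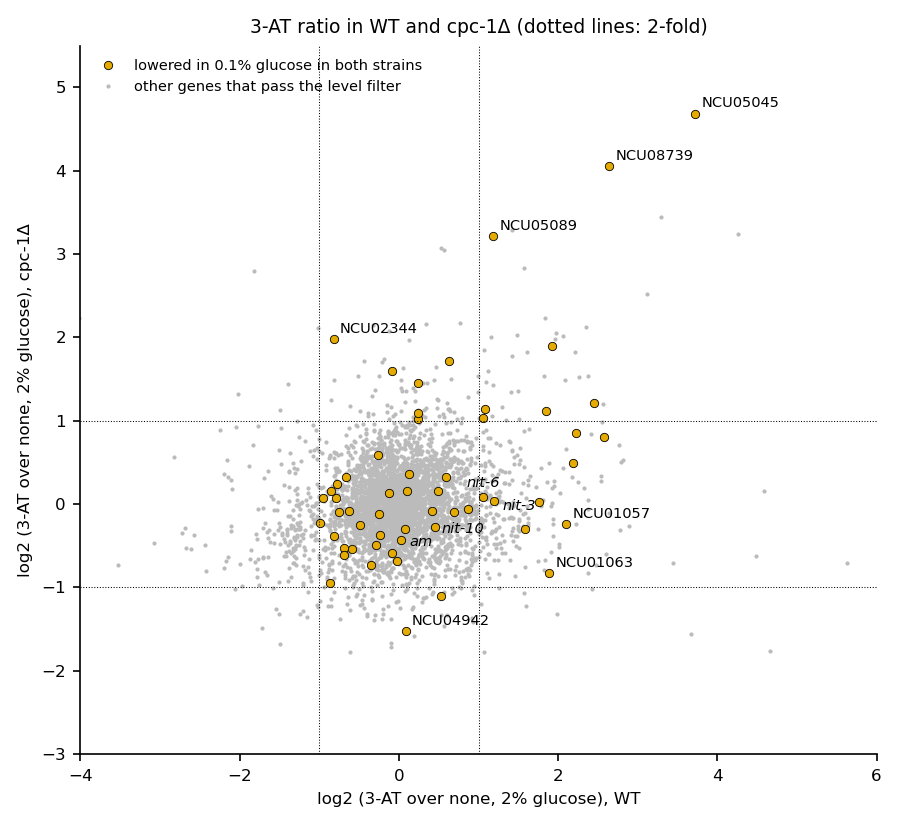
Log2 ratio of 3-AT to no 3-AT in 2% glucose for WT (x axis) and cpc-1Δ (y axis). Yellow points are the 57 genes, grey points the other genes past the level filter (6 genes lie outside the axes), and dotted lines mark 2-fold. NCU05045, NCU08739 and NCU05089 lie far up on the right, with cpc-1Δ ratios of 25.7, 16.6 and 9.29, while nit-3 and nit-6 are displaced along the WT axis only. NCU05045, NCU08739 and NCU05089 passed the level filter only through 3-AT libraries.

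The rule used no cpc-1KO+cpc-1WT library and not the ratio of that strain to *cpc-1Δ* with 3-AT. The *cpc-1Δ* libraries with 3-AT did enter the level filter. NCU11050, NCU06254, NCU05089 and NCU08739, named below for large differences, were among the 12 genes that reached 10 RPKM only through 3-AT libraries. The comparison of the 2 strains, both with 3-AT, asks how *cpc-1* put back at a low level bears on these genes. It was tested with limma on log2 (scaled RPKM + 1), with Benjamini-Hochberg adjustment over 8688 genes, and fold changes are on that scale, which understates those of scarce genes. Of the 57 genes, 32 were higher and 16 lower in cpc-1KO+cpc-1WT at an adjusted p under 0.05, and 9 were not past the threshold. These counts take in the 12 genes that reached 10 RPKM only through 3-AT libraries. Of those 12, NCU05045 and NCU08739 were lower, NCU01057 and NCU08156 were not past the threshold, and the rest were higher. Over all genes tested 16.2% were higher and 12.8% lower, and over the genes past the level filter 25.2% and 15.4%. The median log2 fold change was 0.30 for the 57 genes, beside 0.02 for the filtered genes. At least 2-fold differences were found in 13 of the 32 and in 4 of the 16. By the ratio of group means, whatever the p, 13 of the 57 were at least 2-fold higher and 4 lower. Of the filtered genes 5.52% and 1.25% were.

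Direction depended in part on how libraries were scaled. On RPKM as deposited, 37 of the 57 genes were higher and 8 lower, and over all genes 2556 and 392. With upper-quartile scaling the counts were 26 and 16, and over all genes 1118 and 1583, against 1406 and 1110 here. The 3 transgene libraries were tabulated apart from the other 15, so a batch and the strain cannot be told apart.

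All 4 nitrogen genes were among the 32. *nit-3* had 121.6, 116.2 and 118.9 RPKM in cpc-1KO+cpc-1WT, against 49.9, 44.4 and 50.1 RPKM in *cpc-1Δ*, a log2 fold change of 1.29 ± 0.13 (SE; limma adjusted p = 0.000313). *nit-6* had 688, 646 and 671 RPKM, against 299, 286 and 293 RPKM in *cpc-1Δ*, a log2 fold change of 1.19 ± 0.04 (limma adjusted p = 1.01e-06). *nit-10* had 202, 174 and 180.0 RPKM, against 82.4, 109 and 85.0 RPKM in *cpc-1Δ*, a log2 fold change of 1.01 ± 0.11 (limma adjusted p = 0.000405). The level of these 3 genes in cpc-1KO+cpc-1WT was 0.353, 0.372 and 0.254 of that in WT with 3-AT.

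*am* had 524, 571 and 523 RPKM in cpc-1KO+cpc-1WT, against 466, 473 and 464 RPKM in *cpc-1Δ*, a log2 fold change of 0.21 ± 0.05 (limma adjusted p = 0.0155). That difference was small, and it was lost with upper-quartile scaling, in the fit over 18 libraries and without replicate 1 or 3 of *cpc-1Δ*. Of the 7 other genes on the nitrogen list 1 was higher, *gln-1*, with a log2 fold change of 0.78 ± 0.07 (limma adjusted p = 0.000106), and none was lower (limma). At an unadjusted p under 0.05, *en(am)-2* stood lower and *amt*, with a log2 fold change of 1.06 ± 0.40 (limma adjusted p = 0.0952), stood higher. *nit-2*, with a log2 fold change of -0.10 ± 0.06, and *nit-4*, with 0.03 ± 0.07, did not pass (limma adjusted p = 0.29 and 0.79). On the amino acid synthesis list, which held no member, 35 of 59 genes tested were higher and 8 lower.

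The 5 largest rises were those of NCU11050, NCU06254, NCU05089, NCU03240 and NCU06558. NCU11050 had 137, 101 and 155 RPKM in cpc-1KO+cpc-1WT, against 27.3, 10.1 and 33.6 RPKM in *cpc-1Δ*, a log2 fold change of 2.55 ± 0.40 (limma adjusted p = 0.00278). NCU06254 had 181, 145 and 200.4 RPKM, against 31.9, 29.2 and 36.0 RPKM in *cpc-1Δ*, a log2 fold change of 2.39 ± 0.14 (limma adjusted p = 1.15e-05). In neither gene did the groups overlap.

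NCU05089 had 191, 175 and 208 RPKM in cpc-1KO+cpc-1WT, against 43.7, 43.5 and 39.2 RPKM in *cpc-1Δ*, a log2 fold change of 2.15 ± 0.10. NCU03240 had 278, 286 and 272 RPKM, against 68.0, 68.0 and 70.1 RPKM in *cpc-1Δ*, a log2 fold change of 2.00 ± 0.04. In these genes the level in cpc-1KO+cpc-1WT was above that of WT with 3-AT as well, 4.35-fold and 3.85-fold. The same held for NCU06254 (4.08-fold) and NCU11050 (2.35-fold). Of all 57 genes, 28 were above WT with 3-AT and 29 below. NCU06558 had 223, 222 and 225 RPKM, against 54.7, 57.8 and 59.7 RPKM in *cpc-1Δ*, and was 1.27-fold above WT.

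The largest falls were those of NCU08739, NCU04942, *tcu-3*, NCU08738 and NCU07049. NCU08739 had 4.12, 4.45 and 5.99 RPKM in cpc-1KO+cpc-1WT, against 17.2, 20.1 and 18.5 RPKM in *cpc-1Δ*, a log2 fold change of -1.75 ± 0.12 (limma adjusted p = 3.08e-05). NCU04942 had 13.03, 12.7 and 11.3 RPKM, against 37.8, 42.2 and 38.8 RPKM in *cpc-1Δ*, a log2 fold change of -1.61 ± 0.12 (limma adjusted p = 4.53e-05). Its level in WT with 3-AT was 7.23, 10.1 and 9.30 RPKM.

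*tcu-3* had 5.69, 8.09 and 5.79 RPKM in cpc-1KO+cpc-1WT, against 16.9, 15.02 and 17.1 RPKM in *cpc-1Δ*, a log2 fold change of -1.22 ± 0.17 (limma adjusted p = 0.00159). NCU08738, the neighbour of NCU08739, had 26.6, 24.8 and 23.4 RPKM, against 49.5, 52.6 and 51.7 RPKM in *cpc-1Δ*. NCU07049 had 5.80, 7.53 and 8.19 RPKM, against 15.02, 11.4 and 15.2 RPKM in *cpc-1Δ*. The groups of these genes did not overlap. *fsd-1* had 30.2, 30.8 and 28.1 RPKM, against 24.6, 23.5 and 24.8 RPKM in *cpc-1Δ*, which did not pass (log2 fold change 0.28 ± 0.11, limma adjusted p = 0.113).

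**Figure D5:**
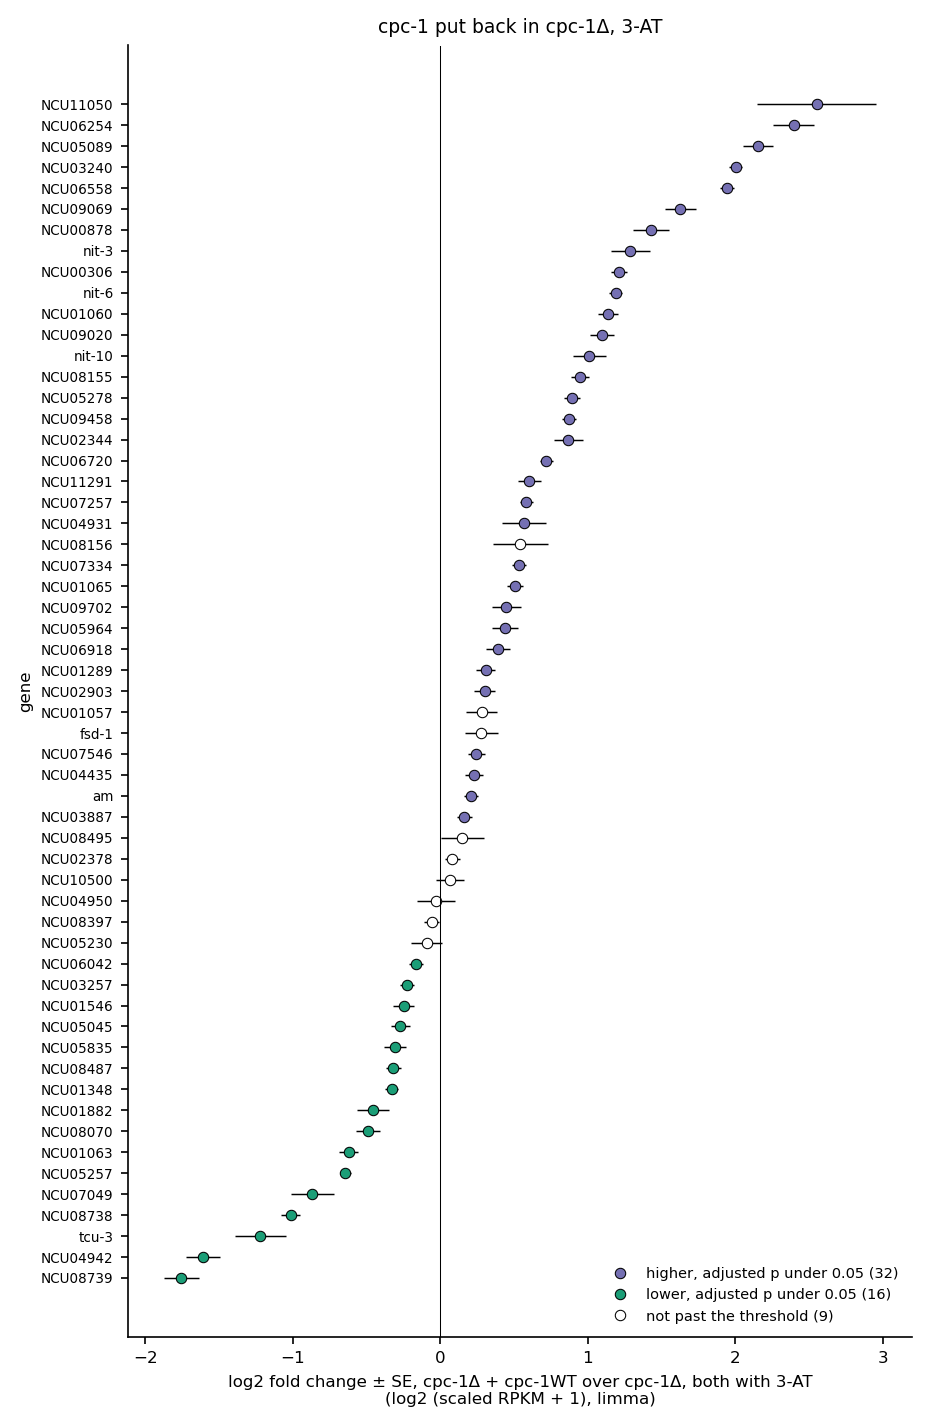
Log2 fold change ± SE of the 57 genes in cpc-1KO+cpc-1WT over cpc-1Δ, both in 2% glucose with 3-AT (limma, 9 libraries), in order of size. Filled points passed an adjusted p under 0.05 (32 higher, 16 lower) and open points did not (9). nit-3, nit-6 and nit-10 lie close together at 1.29, 1.19 and 1.01, while am stands at 0.21.

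Some of the 57 genes lie near each other in the NC12 gene order. The pairs NCU08738 and NCU08739 on chromosome II and NCU08155 and NCU08156 on chromosome VII are direct neighbours. In all, 11 pairs made of 14 genes lie within 10 genes of each other, among them the run NCU01057, NCU01060, NCU01063 and NCU01065 on chromosome V. Such pairs were not counted over the genes past the level filter, so whether the 57 genes lie closer together than others was not tested. Neighbours shared some differences and not others. With 3-AT, NCU08155 and NCU08156 had similar ratios, 1.80 and 1.41 in *cpc-1Δ*, against 4.66 and 4.57 in WT. NCU08738 and NCU08739 had unlike ratios, 2.14 and 16.6 in *cpc-1Δ*, against 1.18 and 6.24 in WT. NCU01057 and NCU01063 had ratios of 0.844 and 0.562 in *cpc-1Δ*, against 4.30 and 3.71 in WT, and NCU01065 had 0.711 in *cpc-1Δ* and 0.816 in WT.

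Chromosome IV held 14 of the 57 genes and chromosome VII 11, which is 24.6% and 19.3% of them, beside 14.9% and 9.43% of the genes past the level filter. Chromosome I held 8, or 14.04%, beside 26.9%. By that annotation, 8 of the 57 overlap another gene (NCU01065, NCU04435, NCU11050, NCU05964, *fsd-1*, NCU06254, NCU01289 and NCU06720), and the share over all genes was not counted. Whether reads were counted by strand was not stated, so reads of these genes and their partners may be mixed.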

How the data were processed

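Messenger RNA of 18 libraries in 7 groups was measured by sequencing. The authors deposited RPKM values, 1 per transcript; the submitters' notes name TopHat2 and Cufflinks, and versions and genome build are not given in the sources used here. Depth in reads is unknown, which limits precision for scarce genes.

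The 10785 transcripts were summed to 9730 genes, of which 9729 were found in a RefSeq gene table (NC12) that gave symbols and gene order. It also gave gene lengths and overlaps, its coordinates are not printed because the files' build is not named, and 7 entries with a remark in place of a plain name were left out. Libraries were divided by the median ratio to the geometric mean of the 15 WT and *cpc-1Δ* libraries. The rule could take 200 genes at most. Members, gene lists and tests were chosen with earlier results of these data known.

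Genes were named by a rule: the 15 smallest products of the low-glucose ratios, members with a symbol or on a gene list, those nearest the limits, the 5 largest rises and falls with the transgene, the extremes of the strain and 3-AT ratios, and adjacent members. Contrasts within WT and *cpc-1Δ* were described without a test. Values printed are scaled RPKM.

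The transgene comparison used limma 3.58.1 (R 4.3.3) on log2 (scaled RPKM + 1), with 1 coefficient per group over the 9 libraries with 3-AT, adjusted over all genes above 0 in any of them, with a threshold of 0.05. It was tested on simulated data. Another 124 genes without a number in a transgene library were not tested. Tables were made with Python 3.11.15, pandas 2.3.3 and NumPy 2.4.6. Alternatives were the pseudocount (0.1), scaling, filters, the libraries fitted, a replicate block, the first transcript alone and leaving out each library. A planned search for letters in promoters was not run, and lists that need product names were not used here.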

Additional observations from a re-analysis of the deposited data

Results flagged for a closer look

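In 10 of the 57 genes every library moved one way with 3-AT in *cpc-1Δ* and the other way in WT. The difference was not tested. In 5 genes the *cpc-1Δ* libraries with 3-AT were lower and the WT libraries higher than those without. NCU01057 had a ratio of 0.844 in *cpc-1Δ* and 4.30 in WT, NCU01063 of 0.562 and 3.71, and NCU02378 of 0.814 and 2.99. NCU01289 had a ratio of 0.464 in *cpc-1Δ* and 1.44 in WT, and NCU06720 of 0.829 and 1.37. The other 5 genes were higher in *cpc-1Δ* and lower in WT. NCU02344 had a ratio of 3.93 in *cpc-1Δ* and 0.566 in WT, NCU08397 of 1.502 and 0.832, and *fsd-1* of 1.26 and 0.630. NCU08487 had a ratio of 1.12 in *cpc-1Δ* and 0.556 in WT, and NCU07334 of 1.10 and 0.921. Of the 4074 genes past the level filter, 554 showed the first pattern and 467 the second. Neither pattern was thus more common among the 57 genes than among the filtered genes.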

How the results depend on the processing

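The number of genes that met the rule was 27 on RPKM as deposited, 29 with a ratio limit of 0.3 and 98 with 0.5. It was 61 with upper-quartile scaling, 55 of them among the 57, and 52 to 60 without 1 library. On RPKM as deposited the median log2 low-glucose ratio was -1.84 in WT, the median 3-AT ratio was -0.42 in *cpc-1Δ* and -0.26 in WT, and the median *cpc-1Δ* to WT ratio was 0.23 in 2% glucose and 0.067 with 3-AT, against -0.41 with the scaling used. The filtered genes moved alike: with 3-AT their strain median was 0.49 as deposited and 0.015 with the scaling used, and the difference of the 57 genes from it was -0.42 either way. With upper-quartile scaling the 3-AT medians were 0.033 in *cpc-1Δ* and 0.072 in WT, and the strain medians -0.27 in 2% and 0.35 in 0.1% glucose. With a pseudocount of 1 the low-glucose medians were -1.84 in *cpc-1Δ* and -2.11 in WT.

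Leaving out 1 library at a time gave low-glucose medians of -2.03 to -1.95 in *cpc-1Δ* and -2.47 to -2.18 in WT, and 3-AT medians of 0.027 to 0.095 in *cpc-1Δ* and 0.11 to 0.21 in WT. The strain medians then ran over -0.42 to -0.31 in 2% glucose, 0.14 to 0.28 in 0.1% glucose and -0.41 to -0.33 with 3-AT. The lowest 3-AT median in *cpc-1Δ* was without replicate 2 in 2% glucose, and the highest in WT without replicate 1 with 3-AT.

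For the transgene comparison, RPKM as deposited gave 37 higher and 8 lower of the 57 genes, and 2556 and 392 of all genes. NCU05230 then had a log2 fold change of 0.14 and, with upper-quartile scaling, NCU02378 of -9.79e-05, each with the sign turned but not past the threshold in either fit. The cause was not tested. Same-numbered libraries did not deviate together, so the replicate numbers were not taken as pairs. With the replicate block 31 of the 57 genes were higher and 15 lower, all among those called without it, and 1268 and 935 of all genes. Without 1 library the 57 genes gave 28 to 31 higher and 12 to 14 lower, and all genes 1144 to 1280 higher and 790 to 973 lower. In the 0.1% glucose libraries, which were the shallowest, 14 of the 57 genes were under 10 times the smallest readable value in at least 1 library, among them *nit-3*, NCU01348, NCU08739, NCU05045, NCU01057 and NCU08156, which limits their ratios.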
